A study of Mus musculus with 7 samples.

Results

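A set of 30 genes of the skeletal muscle fibre was followed in whole mouse skin. They were chosen by symbol as a fixed list. The sarcomeric genes comprise 10 of the fast sarcomere, 4 of the slow sarcomere and 6 grouped as shared by fast and slow fibres. The others are 6 genes of calcium handling and 4 of energy metabolism. All 30 were found among the 56691 genes of the count table, and 23 had enough counts to be among the 12888 genes tested. The libraries came from skin of 3 Tuft1 knockout mice (mice 2, 3 and 4), described as healthy in appearance, and of 4 wild-type mice (mice 5, 6, 7 and 8), with 1 library per mouse. Tuft1 encodes tuftelin 1, a protein associated with desmosomes, the junctions that hold keratinocytes together. The labels give the knockout genotype without the deleted part of the gene, and give no age, strain or body site. Libraries were made with the QuantSeq 3' mRNA kit, which reads the end of polyadenylated transcripts, so that a count is roughly a count of transcripts and was not divided by gene length.

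Mouse skin carries a sheet of skeletal muscle, the panniculus carnosus, below the dermis and the fat. Its fibres contract when calcium leaves the sarcoplasmic reticulum, binds troponin on the actin filament and lets myosin heads pull on that filament, while creatine kinase and glycolysis restore the ATP used. Fast and slow fibres build the same machine from different gene copies of myosin, troponin and the calcium pump, and sarcomeric genes of this kind are known targets of myogenic factors, serum response factor and MEF2. Whether a piece of skin in this series held the muscle sheet is not stated in the labels, so the genes are called striated muscle genes here.

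The proximal promoters of 4 members are shown because these genes anchor the results. They are the fibre actin Acta1, the creatine kinase Ckm, and the neighbouring fast myosins Myh4 and Myh1. The levels of Myh4 and Myh1 stood in opposite order in the knockout mice but not in the wild types. Each sequence is the 250 bases before the RefSeq transcript start in GRCm38.p6, written 5' to 3' on the strand of the gene. Capitals mark the E-box CANNTG, the CArG box and the MEF2 site, all searched on both strands, and no marked matches overlapped in these 4 sequences. Acta1 lies at chr8:123894776-123895025 on the minus strand, Ckm at chr7:19410844-19411093, Myh4 at chr11:67237562-67237811 and Myh1 at chr11:67199852-67200101, the last 3 on the plus strand.
Acta1: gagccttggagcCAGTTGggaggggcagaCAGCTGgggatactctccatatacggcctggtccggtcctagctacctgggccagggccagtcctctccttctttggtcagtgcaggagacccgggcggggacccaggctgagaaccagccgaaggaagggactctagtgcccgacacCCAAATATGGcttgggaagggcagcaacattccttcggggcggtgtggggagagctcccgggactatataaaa
Ckm: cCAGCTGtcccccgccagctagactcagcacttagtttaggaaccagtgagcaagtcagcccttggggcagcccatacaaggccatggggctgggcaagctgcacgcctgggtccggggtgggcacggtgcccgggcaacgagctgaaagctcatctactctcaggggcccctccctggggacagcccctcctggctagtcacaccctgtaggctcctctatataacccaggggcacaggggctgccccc
Myh4: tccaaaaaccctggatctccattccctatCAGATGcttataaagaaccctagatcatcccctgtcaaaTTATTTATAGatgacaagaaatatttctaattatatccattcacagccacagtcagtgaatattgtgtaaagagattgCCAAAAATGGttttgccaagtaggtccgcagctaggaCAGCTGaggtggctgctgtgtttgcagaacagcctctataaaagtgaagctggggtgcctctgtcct
Myh1: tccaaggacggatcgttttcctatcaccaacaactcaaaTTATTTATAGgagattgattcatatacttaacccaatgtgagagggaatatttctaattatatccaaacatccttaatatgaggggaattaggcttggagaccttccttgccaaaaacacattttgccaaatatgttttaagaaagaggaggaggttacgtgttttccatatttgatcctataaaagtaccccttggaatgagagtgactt
Myh4 and Myh1 each held 1 MEF2 match and Acta1 and Myh4 each held 1 CArG match. Of the 30 members, 23 had an entry in the promoter table, with 28 promoters between them. An E-box was present in 24 of these 28 (85.7%) and in 66.2% of all 32851 promoters of the same length. A CArG box was present in 2 of 28 (7.14%) against 1.47% of all promoters, and a MEF2 site in 4 of 28 (14.3%; Ttn, Myh1, Myh4 and Pvalb) against 2.92%. The sequence CATTCC, known as the MCAT element, was present in 9 of 28 (32.1%) against 12.6%. These are matches of letters in a short window and describe neither binding nor regulation in these mice.

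The libraries held between 7009237 and 9256459 gene counts. Levels are given as CPM, a gene's counts scaled to a common library size with TMM factors, on which 3 counts, taken as the limit of a value of 0, amounted to 0.323 to 0.395 CPM. The targeted gene, Tuft1, had 19.9, 29.1 and 17.2 CPM in the knockouts (mice 2 to 4) against 106, 104, 55.6 and 114 CPM in the wild types (mice 5 to 8), so the groups did not overlap (log2 fold change -2.10, SE 0.39, edgeR adjusted p = 0.172). Fat genes were lower in the knockout libraries, with a sum over 9 genes of 2980 to 5405 CPM against 7891 to 13720 CPM, and hair shaft genes summed to 262.5 CPM in knockout mouse 2, to 0 in knockout mice 3 and 4 and to between 0 and 10.77 CPM in wild type. Their part in the results on muscle genes was not tested. Spread between mice was wide, with a common biological coefficient of variation of 108%, a single value fitted over all genes tested. Abundant genes varied less. The coefficient of variation of CPM had a median of 57.3% over all genes tested and 24.7% over those of at least 100 CPM. For the 18 members at that level it was 22.3%. The p-values measure only the spread between these 7 mice. In bulk tissue, fewer muscle fibres and less RNA per fibre cannot be told apart.

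**Figure D1:**
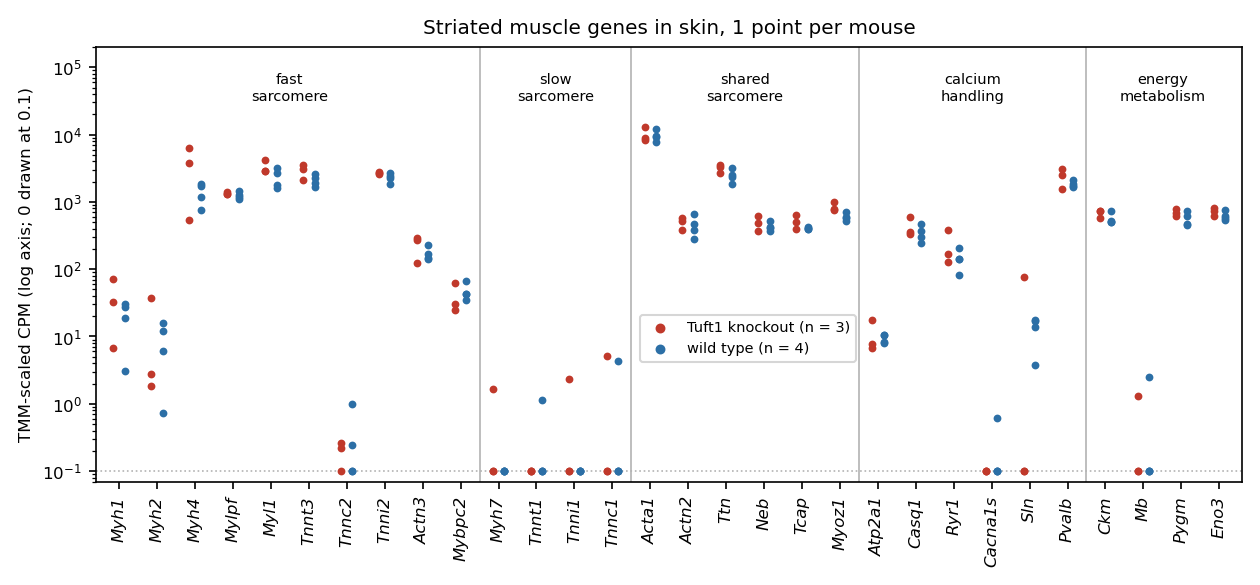
Level of each of the 30 striated muscle genes in each mouse, in TMM-scaled CPM on a log axis, with values of 0 drawn at 0.1; red points are the 3 knockout mice and blue points the 4 wild-type mice. Acta1 lay highest, at 7773 to 12790 CPM, and the 4 genes of the slow sarcomere were at 0 in most mice, as were Cacna1s and Mb.

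None of the 23 tested members passed the test between knockout and wild type, and 22 of them had a log2 fold change above 0. The edgeR quasi-likelihood test with Benjamini-Hochberg adjustment called 0 of 23, beside 3 of 12888 genes over the whole table (0.0233%), with adjusted p = 0.9997 for every tested member. At an unadjusted p below 0.05, 2 members passed, Myh4 and Myoz1, where 4.31% of all genes did. DESeq2 and limma-voom on the same 23 members also called 0, although DESeq2 gave no adjusted p for Sln. The median log2 fold change of the tested members was 0.33, against -0.01 over all genes tested, of which 49.5% were above 0. Among genes with a mean of at least 100 CPM, all 18 members were above 0 with a median of 0.31, and 1676 other genes had a median of -0.05 with 43.6% above 0. The members were read from the same 7 libraries and moved partly together, as described below, so the 22 signs are not separate observations.

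As a share of all gene counts, the 30 members took 2.76%, 3.75% and 4.15% in knockout mice 2, 3 and 4 and 2.58%, 2.48%, 2.50% and 3.24% in wild-type mice 5 to 8. The means were 3.56% ± 0.715 (SD, n = 3) and 2.70% ± 0.366 (SD, n = 4), and wild-type mouse 8 lay above knockout mouse 2. Among the 23 tested members, mouse 3 had the highest level of the 7 mice for 9 genes, mouse 4 for 6, and mice 2 and 8 for 4 each, while wild-type mice 5, 6 and 7 had the highest level of none. The lowest level fell in mouse 6 for 9 genes, in mouse 5 for 5 and in mouse 2 for 4. The 4 genes highest in mouse 2 were Myh1, Neb, Atp2a1 and Sln.

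**Figure D2:**
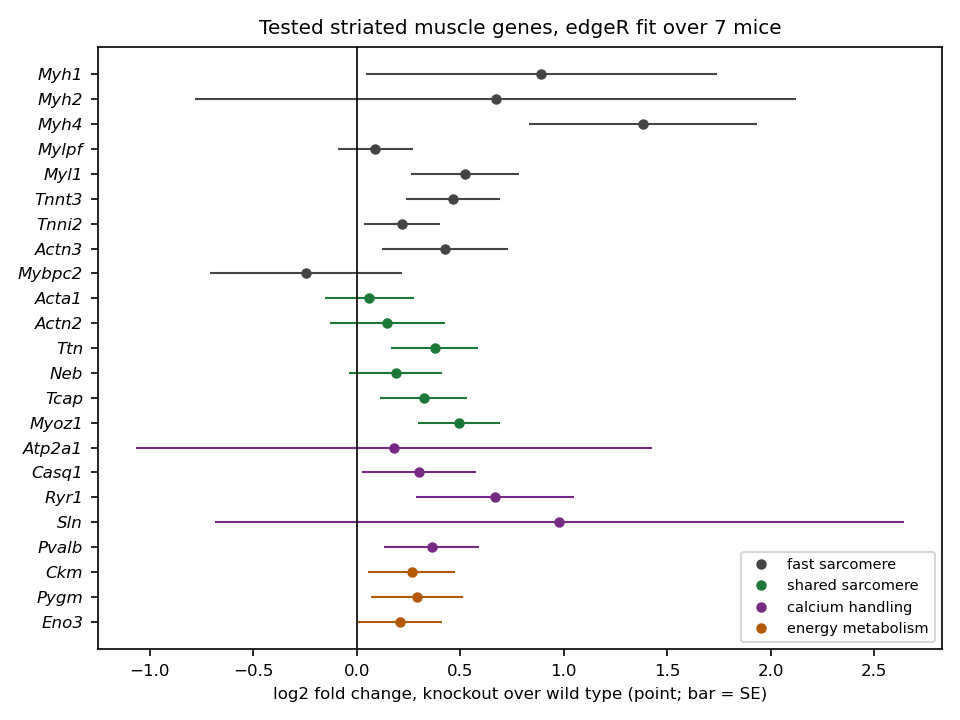
Log2 fold change of the 23 tested members, knockout over wild type, with points for edgeR's estimate and bars for 1 standard error, coloured by role. 22 points lie to the right of 0 and Mybpc2 lies to the left at -0.24.

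The heavy chains are the motors of the sarcomere, and in adult mice Myh4 encodes the chain of the fastest fibres (IIB), Myh1 that of IIX, Myh2 that of IIA and Myh7 that of slow fibres. Myh4 was the most variable of the abundant members, with 539.6, 6376 and 3753 CPM in the knockouts (mice 2 to 4) against 756, 1174, 1825 and 1698 CPM in the wild types (mice 5 to 8). Mice 3 and 4 lay above every wild-type mouse and mouse 2 lay below every other mouse, an 11.8-fold range. The log2 fold change was 1.38 (SE 0.55, unadjusted p = 0.0260, edgeR adjusted p = 0.9997), and it was 0.65 without mouse 3. Its coefficient of variation over the 7 mice was 90.5%, beside a median of 22.3% for the 18 members with at least 100 CPM. With no filter on low counts, edgeR called Myh4 at the same log2 fold change of 1.38 with an adjusted p = 1.41e-07, over 19128 genes tested. No other setting tried called Myh4. Its counts were the same in both fits, so this call depends on the filter and not on a larger difference between groups.

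Myh1 stood in the opposite order in the knockout mice, at 71.3, 6.83 and 33.0 CPM in mice 2, 3 and 4, with 3.12, 19.0, 27.0 and 30.7 CPM in mice 5 to 8. Mouse 2 thus had the lowest Myh4 and the highest Myh1, and mouse 3 the highest Myh4 with a low Myh1. In the wild types Myh1 and Myh4 rose together. Pearson's r of log2(CPM + 1) between them was 0.95 within wild type, -0.88 within knockout and -0.20 over all 7 mice. The values within a group were not tested. Myh2 had 1.81, 2.80 and 37.0 CPM in the knockouts, whereas the wild types had 6.14, 15.9, 12.03 and 0.743 CPM, with mice 2 and 3 inside the wild-type range and mouse 4 above it. Of the counts of the 4 chains together, Myh4 took 87.8% in mouse 2 and 97.1% to 99.8% in the other mice, and Myh1 took 11.6% in mouse 2 and at most 1.77% elsewhere. These shares are uncertain because the end of Myh1 and of Myh2 is shared with antisense genes, as described below, and because the chains are close paralogs. The 3 genes lie side by side in mm39, Myh2 at chr11:67061853-67088343, Myh1 at chr11:67090878-67115401 and Myh4 at chr11:67128855-67151272.

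The fast light chains and troponins, which bind the myosin head or make the thin filament respond to calcium, varied far less. Mylpf, the phosphorylatable fast light chain, was the steadiest member, at 1306, 1298 and 1406 CPM in knockout and 1120, 1264, 1167 and 1470 CPM in wild type. The groups overlapped and the coefficient of variation was 9.55% (log2 fold change 0.09, SE 0.18). Myl1, the fast essential light chain, was at 2902, 4231 and 2865 CPM against 1776, 1583, 2729 and 3189 CPM. Mice 5 and 6 were low and mouse 8 lay inside the knockout range (log2 fold change 0.52, SE 0.26; 0.31 without mouse 3).

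Fast troponin T (Tnnt3), which anchors the troponin complex to tropomyosin, was at 2086, 3040 and 3559 CPM in knockout and 2287, 1643, 1903 and 2554 CPM in wild type, with log2 fold change 0.47 (SE 0.23; 0.28 without mouse 4) and mouse 2 below mouse 5. Fast troponin I (Tnni2), the inhibitory subunit, was at 2643, 2772 and 2582 CPM against 2253, 1842, 2649 and 2416 CPM, overlapping through mouse 7. Both are on chromosome 7 in mm39, Tnni2 at chr7:141995545-141998147 and Tnnt3 at chr7:142052573-142069746. Actn3, the Z-disc actinin of fast fibres, was lowest in mouse 2 at 125 CPM and highest in mouse 4 at 294 CPM, with wild type between 142 and 228 CPM. Mybpc2, the fast myosin-binding protein C, was the single tested member with a value below 0 (-0.24, SE 0.46; -0.00412 without mouse 2 and -0.75 without mouse 3), and its wild-type range of 34.9 to 67.1 CPM covered 1 knockout mouse of 3.

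Of the slow sarcomere genes, 0 of 4 had enough counts for the test. Slow myosin Myh7 had 13 counts and slow troponin I (Tnni1) 18 counts, all in mouse 2. Slow troponin T (Tnnt1) had 10 counts, all in mouse 6, and slow and cardiac troponin C (Tnnc1) had 39 counts in mouse 4 and 39 in mouse 6. Each was therefore read in 1 or 2 of 7 libraries. These 4 do not stand for all genes of slow or oxidative fibres. In a further list of such genes, read below, 12 of 13 were tested. That list summed to 1307 to 1651 CPM in knockout and 1139 to 1506 CPM in wild type. In it, the slow light chain Myl3 ran from 0 to 56.3 CPM over the 7 mice. Fast troponin C (Tnnc2) had 14 counts in all, although its partners Tnnt3 and Tnni2 had at least 1643 and 1842 CPM in every mouse.

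Slow over fast ratios within a library were formed for 4 pairs with 0.5 counts added to each gene. The knockout minus wild-type difference in log2 ratio was 0.81 for Myh7 over Myh4 (exact permutation p = 0.914, adjusted 0.914), -1.46 for Tnnt1 over Tnnt3 (exact p = 0.429, adjusted 0.858), 1.60 for Tnni1 over Tnni2 (exact p = 0.371, adjusted 0.858) and 0.58 for Tnnc1 over Tnnc2 (exact p = 0.886, adjusted 0.914). With 35 splits of 7 mice, the smallest p these two-sided tests can give is 0.0286. The slow gene was at 0 in 6, 6, 6 and 5 of the 7 libraries, so the added count set most of these ratios and their size has no meaning as a fold.

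**Figure D3:**
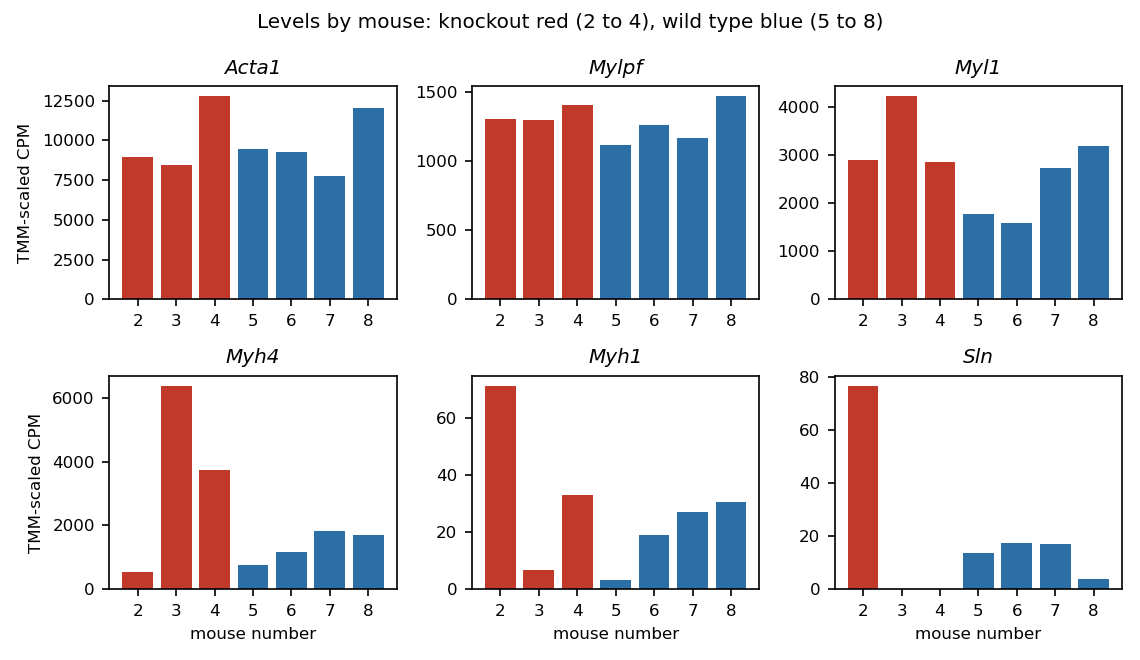
TMM-scaled CPM of 6 members in each mouse, with knockout mice in red and wild-type mice in blue; each panel has its own axis starting at 0. Acta1 and Mylpf differed little between mice, whereas Myh4 and Sln took opposite courses in knockout mice 2, 3 and 4.

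Of the 6 sarcomeric genes grouped as shared, all were tested, all had values above 0 and 0 passed the adjusted test. The grouping is that of the list, and use by both fibre types was not tested. Myoz1 is among them, while its paralog Myoz2 is in a list of slow or oxidative fibre genes read below. Acta1, the skeletal alpha-actin of the thin filament, was at 8965, 8425 and 12790 CPM in knockout and 9469, 9273, 7773 and 12060 CPM in wild type. Mouse 4 and mouse 8 were high and the other 5 mice lay close together (log2 fold change 0.06, SE 0.22). It took between 22.1% and 38.6% of the members' counts in each library. Myoz1, a Z-disc protein that binds calcineurin, was at 787, 1001 and 760 CPM in knockout and 578, 523, 598 and 714 CPM in wild type. It was the single member whose groups did not overlap, where 6.89% of all genes showed this, 3.44% with knockout higher and 3.45% with knockout lower (log2 fold change 0.49, SE 0.20, unadjusted p = 0.0281, edgeR adjusted p = 0.9997).

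Titin (Ttn), the spring that spans the sarcomere, was at 2717, 3528 and 3311 CPM in knockout and 2319, 1819, 2539 and 3142 CPM in wild type, with mouse 8 inside the knockout range (log2 fold change 0.38, SE 0.21). Tcap, which caps titin at the Z-disc, was at 391, 500.5 and 633 CPM in knockout, while the wild-type values lay within 390.0 and 419 CPM. Its log2 fold change was 0.32 (SE 0.21), and it was 0.13 without mouse 4. Nebulin (Neb), the ruler of the thin filament, and Actn2, the actinin of all fibres, differed less, with log2 fold changes of 0.19 (SE 0.22) and 0.15 (SE 0.28).

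Calcium handling genes comprised 5 tested members, of which 5 had values above 0 and 0 passed the adjusted test. Parvalbumin (Pvalb), the calcium buffer of fast fibres, was at 1554, 3043 and 2523 CPM in knockout and 1744, 1653, 1846 and 2145 CPM in wild type, with mouse 2 lowest of all (log2 fold change 0.36, SE 0.23; 0.14 without mouse 3 and 0.59 without mouse 2). Ryr1, the release channel of the sarcoplasmic reticulum, was at 170.5, 128 and 384 CPM against 81.5, 142, 141 and 208 CPM. Its log2 fold change of 0.67 (SE 0.38) came from mouse 4, and without that mouse it was 0.05. Casq1, the calcium-binding protein of the reticulum, lay between 335 and 587 CPM in knockout and between 243 and 471 CPM in wild type.

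Sarcolipin (Sln), a small inhibitor of the calcium pump, was at 76.8 CPM in mouse 2 and at 0 in mice 3 and 4, with 13.7, 17.3, 17.2 and 3.71 CPM in wild type. Its fitted log2 fold change of 0.98 (SE 1.66) was set by mouse 2, and without that mouse the remaining knockout libraries were at 0. The pump itself, Atp2a1, had 6.71 to 17.5 CPM in all mice, and Cacna1s, the voltage sensor that opens Ryr1, had 5 counts in mouse 8 and 0 elsewhere. Both genes end within antisense genes.

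Energy genes showed 3 of 3 tested members above 0 and 0 past the adjusted test. Muscle creatine kinase (Ckm) was at 725, 575 and 731 CPM in knockout and 497, 503, 523.5 and 731 CPM in wild type, with mouse 8 as high as mouse 4 (log2 fold change 0.26, SE 0.21). Muscle glycogen phosphorylase (Pygm) was at 694.5, 780.4 and 617 CPM against 454.5, 465, 625.5 and 734 CPM, and the enolase of muscle (Eno3) at 721.5, 813 and 621 CPM against 573, 539, 619 and 757 CPM. In both, mice 5 and 6 were lowest and mouse 8 lay within the knockout range (log2 fold changes 0.29, SE 0.22, and 0.21, SE 0.20). Myoglobin (Mb), the oxygen store of oxidative fibres, had 10 counts in mouse 2, 20 in mouse 8 and 0 elsewhere.

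Most members with a low level, though not all, ended inside a gene of the opposite strand. For each gene, the last 300 exonic bases of the mm39 annotation were compared with the exons of other genes on either strand. A gene was counted where at least 150 of them were covered, a threshold chosen after the data were seen. This held for 8 of 30 members (26.7%) and for 4.77% of all genes in the table. In those 8, every covered base lay in exons of a gene on the opposite strand, whereas the 4.77% counts either strand. The 8 were Tnnc2, with 271 bases inside Ube2c, Mb with 300 bases, Cacna1s with 300, Atp2a1 with 269 inside Rabep2, Myh1 with 259 inside Myhas, Myh7 with 241 inside Mhrt, Myh2 with 237, and Mybpc2 with 161. Their mean levels ran from 0.0884 to 43.8 CPM with a median of 5.23 CPM, and 0 of 8 reached 100 CPM. The other 22 had 0 bases covered, with a median of 618 CPM, and 18 of them reached 100 CPM.

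Ube2c had 48 to 206 counts per library where Tnnc2 had 14 counts over all 7. Rabep2, opposite the end of Atp2a1, had 0 to 169 counts per library. The other opposite genes were read little or not at all. Those covering the ends of Mb, Cacna1s and Myh7 had 0 counts in all 7 mice. Those covering the ends of Myh1, Myh2 and Mybpc2 had 12, 18 and 95 counts, each in a single mouse. The exceptions among the 22 were Tnnt1, Tnni1, Tnnc1 and Sln, which were low with no covered bases, and among 110 other muscle genes desmin (Des) had 152 covered bases and a mean of 486 CPM. No source used here states whether the authors' counting used strand or how it treated reads that fit 2 genes. The part of this overlap in the low counts was not tested, and the levels of these 8 genes are reported as uncertain. The annotated end of a gene also need not be the end used in skin.

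Across the 7 mice the members moved together in part. Pearson's r of log2(CPM + 1) had a median of 0.36 over the 253 pairs of tested members, with 186 pairs above 0 and a range of -0.96 to 0.97. The permutation test over all pairings called 0 of 253 pairs after adjustment and 38 at an unadjusted p below 0.05. The closest pair was Myl1 and Pygm (r = 0.97, permutation p = 0.00119, adjusted 0.0574, rho = 0.93), and r was 0.86 without mice 5 and 6, the 2 farthest from the median of Myl1. Myh4 and Pvalb followed with r = 0.95 (permutation p = 0.00139, adjusted 0.0574, rho = 0.93, 0.87 without mice 2 and 3). The lowest values were those of Sln, with r = -0.96 to Actn3 (permutation p = 0.00159, adjusted 0.0574, rho = -0.88, -0.88 without mice 3 and 4) and r = -0.95 to Pvalb (permutation p = 0.00119, adjusted 0.0574, rho = -0.96, -0.91 without mice 3 and 4). Sln was not opposed to every member, with r = 0.75 to Atp2a1, 0.32 to Neb and 0.30 to Myh1.

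**Figure D4:**
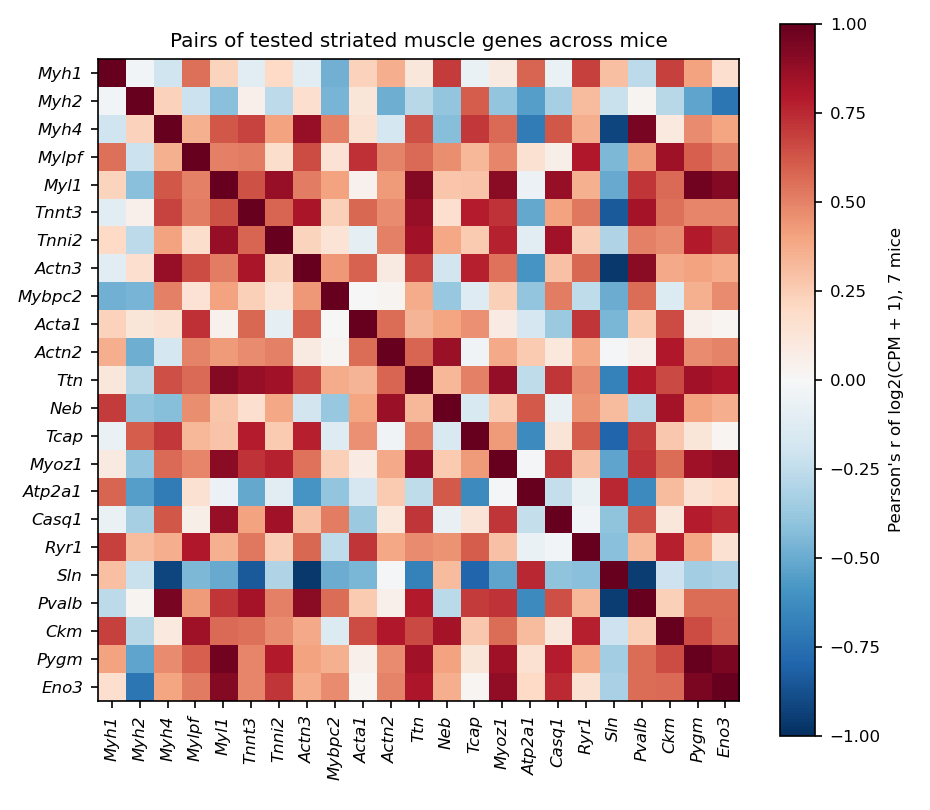
Pearson's r of log2(CPM + 1) across the 7 mice for each pair of the 23 tested members, from blue at -1 to red at 1, ordered by role. Myl1, Ttn, Myoz1, Pygm and Eno3 form a red group, and Sln gives a blue row against Myh4, Actn3 and Pvalb.

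Acta1, the most abundant member in counts, was not followed closely by the rest. Over 29 relations of the other members with Acta1, 0 had an adjusted p below 0.05 and the median r of the tested members was 0.19. Mylpf had the highest r, 0.73 (permutation p = 0.0627, adjusted 0.877, rho = 0.50), and without mice 4 and 8, the 2 farthest from the median of Acta1, it was -0.01. Ckm had r = 0.65, which was -0.05 without those mice. Both relations therefore rest on mice 4 and 8.

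Other genes of skeletal muscle were read from 8 lists covering slow and oxidative fibres, the sarcomere and Z-disc, the triad, glycolysis, the membrane complex, development, regulators and atrophy. Of 94 tested genes, 60 had values above 0, 34 below, 0 passed the adjusted test, and the median log2 fold change was 0.16. No overlap between groups, knockout higher, was seen for 5 genes (3.44% of all genes). Myom3, an M-band protein, was at 83.2, 74.04 and 155 CPM in knockout and 32.2, 47.2, 59.0 and 65.6 CPM in wild type (log2 fold change 1.03, SE 0.36, edgeR adjusted p = 0.988). Ncam1, an adhesion molecule of immature and denervated fibres and of nerve, was at 52.7, 33.3 and 49.7 CPM against 4.31, 13.6, 7.73 and 28.2 CPM (log2 fold change 1.75, SE 0.70, edgeR adjusted p = 0.9997).

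Scn4a, the sodium channel of the fibre membrane, was at 8.93, 10.98 and 2.11 CPM in the 3 knockout mice and at 0 in the 4 wild-type mice. Actc1, the cardiac actin that developing and regenerating fibres also use, was at 167, 98.5 and 35.7 CPM in knockout and 9.80, 28.8, 3.93 and 101 CPM in wild type. Its log2 ratio to Acta1 within a library was 2.13 higher on average in knockout (exact permutation p = 0.143, adjusted 0.514 over the 4 ratios added later), with mouse 8 of the wild type above mouse 4 of the knockout. Of the other genes of development, embryonic myosin Myh3 and the fusion and differentiation genes Mymx and Myog were at 0 in all 7 mice, while the fusion gene Mymk had 52 counts and the myogenic factor Myod1 25 counts, all in mouse 2. Pax7, of satellite cells, had 49 counts in mouse 2 and 14 in mouse 8, and perinatal myosin Myh8 had 94 counts in mouse 2, 207 in mouse 5 and 41 in mouse 8, with 1 in each of mice 3 and 4. Log2 fold changes of the other genes with the smallest p in their lists were 1.76 (SE 1.15) for the slow light chain Myl3, 0.30 (SE 0.27) for the cytochrome oxidase subunit Cox7a1, 0.52 (SE 0.27) for the M-band gene Myom1, 0.71 (SE 0.33) for the calcium-binding Hrc, 0.39 (SE 0.19) for aldolase (Aldoa), 1.30 (SE 1.22) for beta-sarcoglycan (Sgcb) and 0.80 (SE 0.42) for the fast-fibre regulator Tbx15. Eya1, a transcriptional coactivator, was at 32.6, 18.0 and 15.9 CPM against 8.72, 0, 0 and 4.21 CPM (log2 fold change 2.77, SE 1.73). In the other direction, Gpd1, a glycerol phosphate dehydrogenase of muscle that fat also makes, had a log2 fold change of -0.84 (SE 0.29), and the metallothioneins Mt1 and Mt2 had -0.51 (SE 0.23) and -0.57 (SE 0.22), each with groups that did not overlap (3 genes lower, beside 3.45% of all genes).

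**Figure D5:**
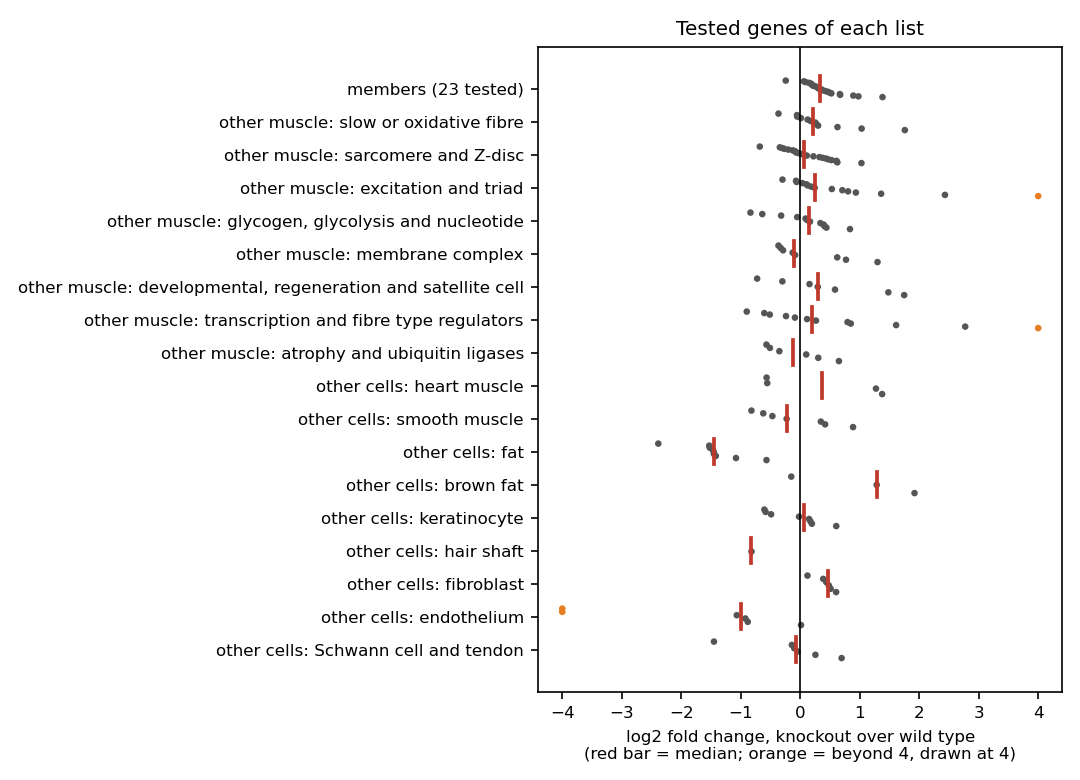
Log2 fold change, knockout over wild type, of every tested gene of the members and of each list of other muscle genes and other cell types, with the median of each list as a red bar and values beyond 4 drawn at 4 in orange. The members lie near 0.33 and the fat list lies at -1.45.

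Markers of other cell types were read in the same libraries. Heart muscle genes, which slow or developing fibres share in part, summed to 32.9 to 58.2 CPM in knockout and 11.8 to 88.4 CPM in wild type, with 0 of 4 tested past the adjusted test. Smooth muscle genes summed to 204 to 373 CPM against 215 to 483 CPM. Fibroblast genes, highest in mouse 2, had 6 of 6 values above 0 and a median of 0.46, above that of the muscle genes, and 0 of 6 passed the adjusted test. Their sums were 11180 to 29970 CPM in knockout and 10720 to 18280 CPM in wild type. The fat genes had 9 of 9 values below 0 with a median of -1.45. Adipoq, the fat hormone, was at 360.5, 284 and 257 CPM against 866, 1042, 573 and 851 CPM (edgeR adjusted p = 0.0934). The part of the fat and fibroblast levels in the muscle values was not tested. With TMM factors taken from genes outside the muscle, fat and hair lists, the members' median was again 0.33.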

How the data were processed

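RNA from skin of 7 mice, powdered and snap-frozen per the labels' protocols, was made into QuantSeq 3' libraries. The deposited table holds raw counts per gene; it was made on mm39, and the tools listed in the submitters' processing notes, without roles, are featureCounts of Subread 2.0.3, GATK 4.2.4.0, edgeR 3.36.0 and STAR. No source used here states strand use, duplicate removal or the treatment of reads from overlapping genes. A second table of filtered, normalized values was not used here.

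Counts were filtered with filterByExpr (minimum count 10), scaled by TMM and tested with edgeR 4.0.16 (quasi-likelihood F test, all 7 libraries, no covariate) in R 4.3.3, with Benjamini-Hochberg adjustment over all 12888 genes and a threshold of 0.05. Alternatives were DESeq2 1.42.0 size factors and Wald test, limma 3.58.1 voom, no filter, other TMM genes and leaving out each mouse. Ratios and correlations used exact or full permutation tests, over 35 splits and 5040 pairings. The 4 further ratios, all pair correlations and the gene-end overlaps were added after seeing the data. The members and lists were chosen with earlier results of these data known. The genes named are Tuft1, the 30 members and, from each list of other muscle genes, the 2 with the smallest p, with up to 3 defining markers of other cell types, and 1 of these genes is not reported here; Myh3, Mymx, Myog, Mymk, Myod1, Pax7, Myh8, Des, Lor, Cox8b, Ube2c and genes in overlaps were chosen after their values were seen. Libraries had 7009237 to 9256459 counts, and a limit of 3 counts for a 0 covers counting error only.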

Additional observations from a re-analysis of the deposited data

Results flagged for a closer look

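In the groups of 4 wild-type mice, 3 values lay far from the other 3 by Dixon's criterion at the 95% level, on log2(CPM + 1); 24 groups of 4 were examined, and chance alone marks about 1 in 20, or 1.2 here. Tuft1 was at 5.82 in wild-type mouse 7, below the others at 6.71 to 6.85. Sln was at 2.24 in wild-type mouse 8, with the others at 3.88 or above. Ckm was at 9.52 in wild-type mouse 8, above the others at 8.96 to 9.03.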

How the results depend on the processing

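The count of 0 members called held in every setting tried except 1: with no filter on low counts 1 member, Myh4, was called. The members' median log2 fold change stayed between 0.25 and 0.42. The number of members tested differed between settings. Those above 0 ran from 19 of 24 tested, without mouse 2, to 25 of 30 tested, with no filter on low counts. Over all genes, 3 were called as reported, 123 by the DESeq2 Wald test, 22 by limma-voom, 76 with no filter, and 0 to 1 when a mouse was left out. Of 276 member values under other settings, 11 reversed in sign, in 8 members. By limma-voom, Myh2 was -0.042 and Sln -4.16. When a mouse was left out, log2 fold changes ran from -0.00765 to 1.39 for Myh1, -1.91 to 1.19 for Myh2, -0.16 to 0.19 for Acta1, -0.0316 to 0.39 for Actn2, -0.00819 to 0.35 for Neb, -0.38 to 0.42 for Atp2a1, -0.00505 to 0.49 for Casq1, and -9.79 to 1.57 for Sln. Differences in log2 ratio ran from -1.87 to 2.40 for Myh7 over Myh4, -0.18 to 2.57 for Tnni1 over Tnni2, -1.13 to 2.69 for Tnnc1 over Tnnc2, -1.91 to 1.55 for Myh1 over Myh4 and -1.86 to 0.44 for Myh2 over Myh4, and with 5 counts added the first was -0.16. The cause of these shifts was not tested. No paired analysis was possible because the mouse numbers are not shared between groups. The 7 untested members had at most 78 counts each in all, too few for a comparison.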

Other observations

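Genes of other cell types were read in the same libraries, with 0 of them past the adjusted edgeR test. Endothelial genes had 5 of 6 values below 0 (median -0.99), and their sums were 73.0 to 114 CPM in knockout and 87.0 to 191 CPM in wild type. Pecam1, an adhesion molecule of endothelium, was at 41.0, 33.8 and 17.8 CPM against 79.1, 74.7, 42.7 and 62.1 CPM, with groups that did not overlap. Among genes that brown fat uses, Ucp1 was at 0 in all 7 mice and the other 3 had 2 values above 0 and 1 below. Which cells made the transcripts of those 3 was not tested. Cidea was at 47.0, 170.0 and 142 CPM in knockout and 51.0, 33.4, 41.0 and 71.0 CPM in wild type. Log2 fold changes were 1.28 (SE 0.42) for Cidea, 1.92 (SE 0.69) for Elovl3 and -0.15 (SE 0.31) for Cox8b, and the sums of the list overlapped, at 425 to 463 CPM in knockout and 209 to 521 CPM in wild type. Keratinocyte genes had 4 of 8 values above 0 and 4 below, with a median of 0.06. Their sums were mostly lower in knockout, at 17140 to 18460 CPM against 18410 to 22020 CPM in wild type. The ranges overlapped only through knockout mouse 4 and wild-type mouse 8. The part of these sums in the muscle values was not tested. Loricrin (Lor), of the cornified envelope, was at 3882, 4505 and 3807 CPM in knockout and 6415, 4580, 7906 and 5779 CPM in wild type. It was chosen after its values were seen, as the 1 gene of this list whose groups did not overlap, and does not stand for the list. Schwann cell and tendon genes summed to 259 to 553 CPM in knockout and 271 to 399 CPM in wild type, so their ranges overlapped.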
